A study of Mus musculus with 2 samples.

Results

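KOS_1 is the largest cluster of liver endothelial cells in mice labelled as lacking c-Maf in the endothelium, by the cluster names that the authors deposited for each cell. The members were taken by that name alone and matched by barcode to the count tables. The name was given to 1357 of 15835 annotated cells, of which 1356 came from the c-Maf KO library and 1 from the control library. The 1356 cells were 45.3% of the 2991 cells in endothelial clusters of that library and held 14059095 UMIs (unique molecular identifiers, each counting 1 captured RNA molecule).

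The study compared liver endothelium of c-Maf KO and control mice at postnatal day 15 by droplet single-cell RNA sequencing of endothelial and hematopoietic cells sorted by flow cytometry. Each group was 1 library, made from 1 male and 1 female mouse together. The labels call the c-Maf KO group an endothelial cell knockout and the control group WT. The sources used here do not state the strain, the driver of the deletion or the part of Maf that it removes.

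Sinusoidal endothelial cells line the capillaries of the liver. They are fenestrated, lack a continuous basement membrane and clear waste molecules from blood through scavenger receptors, and cells near the central vein and the portal tract differ in the genes they use. Continuous capillaries of other organs instead have closed junctions, caveolae and a basement membrane. c-Maf, encoded by Maf, is a basic leucine zipper transcription factor that binds the Maf recognition element.

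With 1 library per group no difference had a replicate check, and no test of the conditions was possible. Intervals in brackets are exact 95% intervals that cover counting error only. Clusters were cut from the same genes, so every contrast of KOS_1 with another cluster describes these libraries and tests nothing. Levels are in CPM, which scales the UMIs of a gene to all UMIs of the cells summed, and ratios are log2 of KOS_1 over the other cells with 0.5 UMI added to each sum. The call of a gene as higher or lower took a fold of at least 1.5, an interval of the ratio without 0 on the log2 scale, and 50 or more UMIs in the 2 sums together.

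The median KOS_1 cell held 10305 UMIs and 3369 genes, with 6.13% of UMIs from mitochondrially encoded genes. Control cells of the clusters S and S2, which carry sinusoidal genes and are called the control sinusoid here, numbered 2779 with a median of 4925 UMIs and a total of 15112190. The c-Maf KO library also held 336 cells named S or S2, with a median of 5466 UMIs. Scrublet marked 15 KOS_1 cells (1.11%) as doublets. The libraries shared 21 annotated barcodes.

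Maf was nearly absent from KOS_1. It had 131 UMIs in the 1356 KOS_1 cells (9.32 CPM), against 32612 UMIs in the control sinusoid (2158 CPM), a log2 ratio of -7.85 (-8.11 to -7.61). The cells of the c-Maf KO library named S or S2 had 1732 CPM, so Maf RNA was high in these cells and low in KOS_1 of the same library. A Maf UMI was seen in 83 KOS_1 cells (6.12%), and 5 of these cells held 43 of the 131 UMIs. After each cell was thinned to 1128 UMIs the share was 0.737% in KOS_1, against 1.25% in cells of B3, a cluster outside the endothelium of the same library that served as a background (median depths of 10305 and 3612 UMIs before thinning, with an unthinned share of 4.18% in B3). At equal depth the KOS_1 share was not above that background. Both shares rest on few cells and were not tested against each other. The gene lies at chr8:115682942-115707794 on the minus strand of GRCm38.

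The 5 genes given as markers of KOS_1 separated it from the control sinusoid, with 1 exception. Ly6a, which encodes the surface protein Sca-1, had 2113 CPM in KOS_1 and 25.7 CPM in the control sinusoid, a log2 ratio of 6.36 (6.21 to 6.51). Mest, an imprinted gene expressed from the paternal copy, had 1234 CPM in KOS_1 and 232 CPM in the control sinusoid, a log2 ratio of 2.41 (2.36 to 2.46). Both differences were far above the fold used for calling. Pcdh17, a protocadherin, had 1289 CPM in KOS_1 against 529 CPM in the control sinusoid, a log2 ratio of 1.29 (1.25 to 1.32). Tm4sf1, a tetraspan-like membrane protein of endothelium, had 595 CPM in KOS_1 and 270 CPM in the control sinusoid, a log2 ratio of 1.14 (1.09 to 1.19). Cavin2, a coat protein of caveolae, was called in neither direction. It had 739 CPM in KOS_1 and 567 CPM in the control sinusoid, a log2 ratio of 0.38 (0.34 to 0.42). Background for Ly6a cannot be read from B3 cells, since 40.9% of these cells held a Ly6a UMI.

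**Figure D1:**
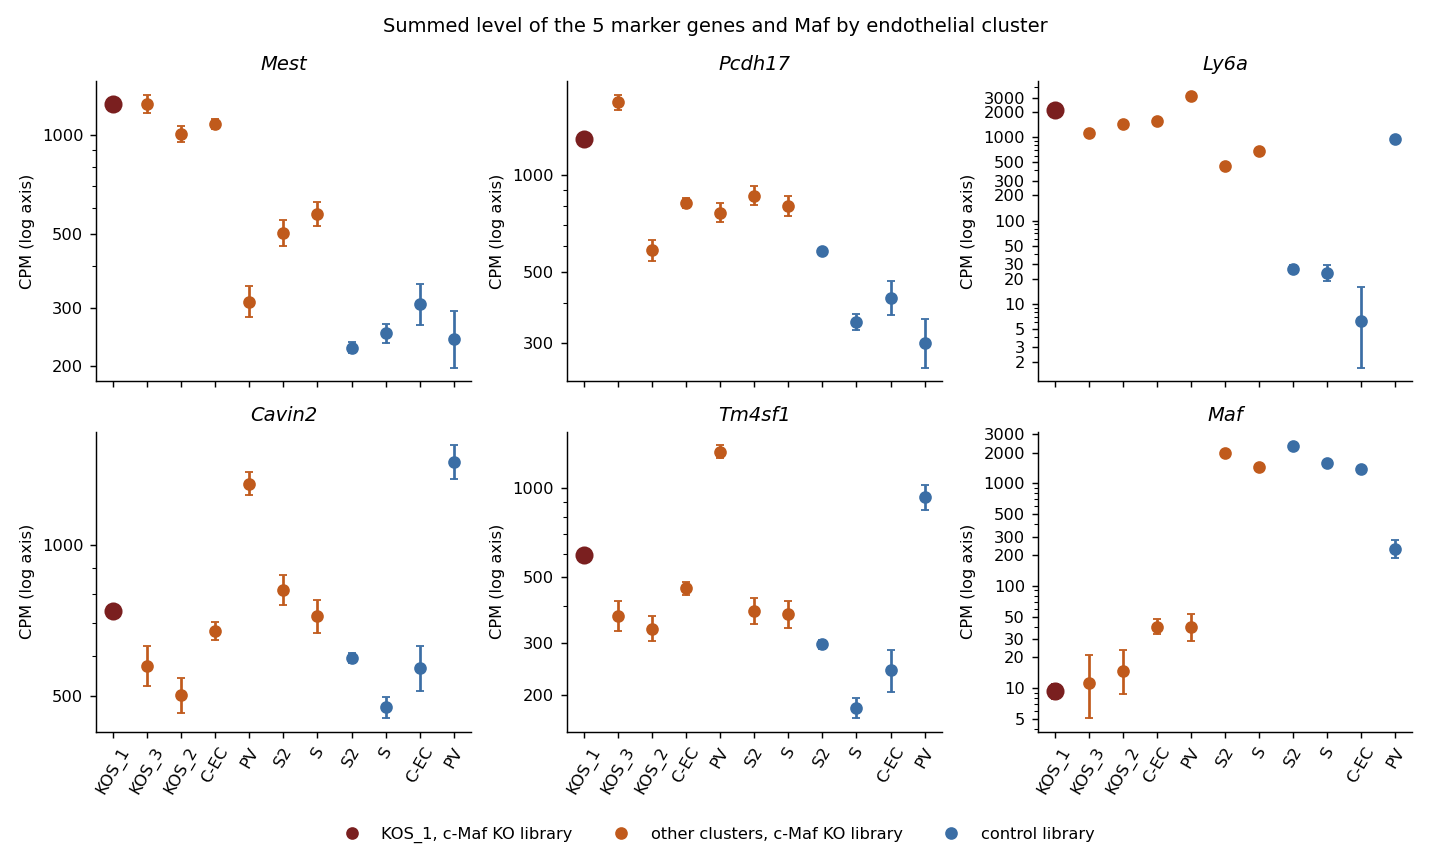
Summed level of Mest, Pcdh17, Ly6a, Cavin2, Tm4sf1 and Maf in each endothelial cluster, in CPM on log axes that differ between panels; points are sums over the cells of 1 cluster in 1 library and bars are exact Poisson 95% intervals. KOS_1 stands at 2113 CPM for Ly6a against 26.3 CPM in control S2, and PV cells of the c-Maf KO library exceed KOS_1 for Ly6a, Cavin2 and Tm4sf1.

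Within the c-Maf KO endothelium the markers were shared with other clusters. Over all other endothelial cells of that library the log2 ratio was 0.58 for Pcdh17, 0.52 for Mest, 0.51 for Ly6a, 0.17 for Tm4sf1 and -0.01 for Cavin2. Ranked by this ratio among 8789 genes, Pcdh17 came at place 112 and Cavin2 at place 4441. The clusters named KOS_3 and PV show how the markers are shared. Mest had 1234 CPM in KOS_1 and 1241 CPM in KOS_3, and Pcdh17 had 1289 CPM in KOS_1 and 1681 CPM in KOS_3. In the cluster named PV, where genes of larger vessels such as Vwf were high, Ly6a had 3146 CPM, Cavin2 1326 CPM and Tm4sf1 1331 CPM, each above the KOS_1 level. The genes that led KOS_1 over the rest of its endothelium had small ratios. The chemokine gene Cxcl9 came first at 1.39, and 1 cell held 112 of its 449 UMIs. The uracil-DNA glycosylase gene Ung followed at 1.31, spread over 166 cells. Ly6a was the marker with the widest gap to KOS_3, at 2113 CPM in KOS_1 and 1114 CPM in KOS_3. Within the c-Maf KO library each marker was matched or exceeded in KOS_3 or PV.

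Single cells carried the markers in combination. Thinned to 1128 UMIs each, 39.97% of KOS_1 cells held a UMI of 4 or 5 of the 5 markers, against 1.23% of control S2 cells and 0.309% of control S cells. The share was 28.9% in PV, 10.6% in S2 and 7.30% in S of the c-Maf KO library, and in KOS_3 45 and 12 of 228 cells held 4 and 5 markers. Without thinning, Ly6a was seen in 99.4% of KOS_1 cells, against 9.94% of control S2 cells (median depths of 10305 and 7382 UMIs). In thinned cells the Ly6a share was 79.3% in KOS_1 (77.0 to 81.4%) and 1.99% in control S2 (1.34 to 2.84%). The spread between cells was wide for every marker. Ly6a in a KOS_1 cell had a 10th percentile of 521 CPM, a median of 1757 CPM and a 90th percentile of 4429 CPM. Mest in a KOS_1 cell had a median of 1076 CPM, and 79.5% of KOS_1 cells lay above the 90th percentile of the control sinusoid (587 CPM). For Tm4sf1 32.0% of KOS_1 cells did so, and for Cavin2 14.8%.

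**Figure D2:**
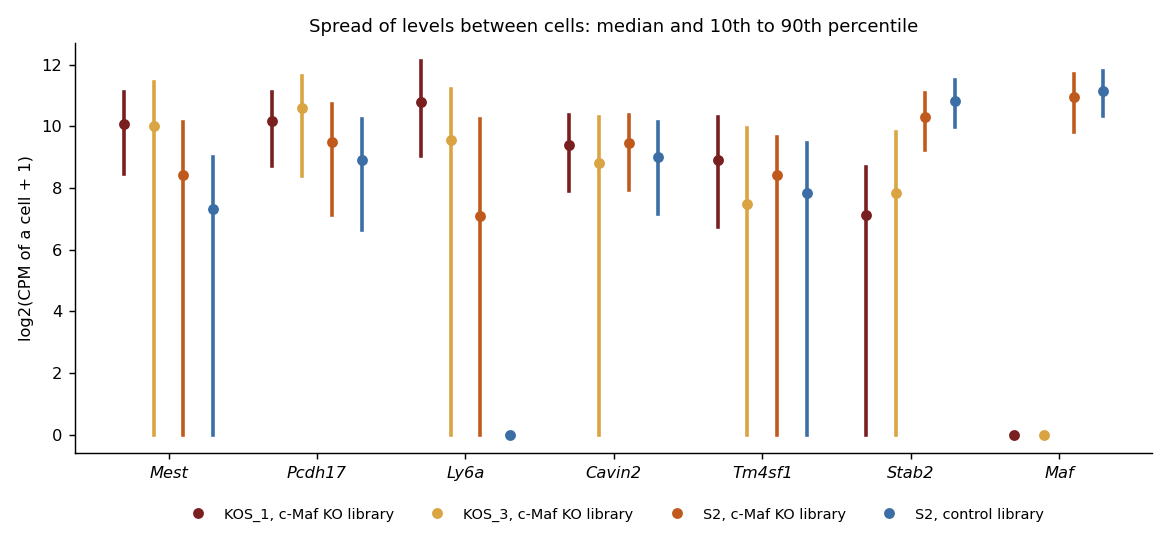
Levels in single cells as log2(CPM + 1); points are medians over cells and lines run from the 10th to the 90th percentile, for KOS_1, KOS_3 and S2 of the c-Maf KO library and S2 of the control library. A value of 0 means that no UMI was seen and depends on depth, with medians of 10305, 3178.5, 8000 and 7382 UMIs in that order; Ly6a and Maf separate KOS_1 from control S2 most widely, while the Cavin2 ranges overlap.

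Across all genes, 1617 of 11296 tested were called higher in KOS_1 than in the control sinusoid (14.3%) and 1956 lower (17.3%), 31.6% in all. The median ratio over all genes was -0.08. Scaling by the median of ratios instead raises each log2 ratio against the control sinusoid by 0.11, with 1986 genes called higher and 1545 lower. The 12 genes furthest above the control level were Pdlim3, Cd109, Pcp4l1, Chrm3, Ly6c1, Mal, Ly6a, Aplnr, Tcf15, Nts, Pdgfb and Gpm6a. Pdlim3, whose protein binds actin through PDZ and LIM domains, had 1872 UMIs in KOS_1 (133 CPM) and 0 in the control sinusoid, at least 671-fold higher against a floor of 3 UMIs over the control cells. Cd109, a membrane-anchored co-receptor of TGF-beta, had 249 UMIs in KOS_1 and 0 in the control sinusoid, at least 89.2-fold higher on the same floor. Pcp4l1 had 229 CPM in KOS_1 and 0.993 CPM in the control sinusoid, a log2 ratio of 7.80 (7.13 to 8.69). The control level of these genes was at or near 0.

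Several of the raised genes belong to capillary endothelium elsewhere in the body. Aplnr, the apelin receptor, had 197 CPM in KOS_1 against 5.56 CPM in the control sinusoid, a log2 ratio of 5.14 (4.83 to 5.48). Tcf15, a transcription factor of heart and muscle capillaries that promotes fatty acid uptake, had 703 UMIs in KOS_1 and 23 in the control sinusoid, a log2 ratio of 5.01 (4.44 to 5.71). Pdgfb, the growth factor that recruits pericytes to capillaries, had 36.8 CPM in KOS_1 and 1.12 CPM in the control sinusoid, a log2 ratio of 4.99 (4.34 to 5.82). All 3 were close to silent in the control sinusoid. Ly6c1, a neighbour and close relative of Ly6a, had 198 CPM in KOS_1 and 1.99 CPM in the control sinusoid. The counts of Ly6a and Ly6c1 are uncertain to the extent that reads of Ly6 family members were shared between them. Chrm3, the M3 muscarinic receptor gene, had 249 UMIs in KOS_1 and 1 in the control sinusoid, a log2 ratio of 7.48 (5.57 to 13.37). Mal, a proteolipid of membrane sorting, had 448 UMIs in KOS_1 and 5 in the control sinusoid, and Gpm6a, a membrane glycoprotein, had 608 and 22 UMIs in the same order. Nts, which encodes neurotensin, was held by few cells: 17 KOS_1 cells carried its 252 UMIs and 1 of them carried 86.

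Among the 12 genes furthest below the control level were Il13ra2, Dnase1l3, Maf, Cyp26b1, Tpbgl, Flrt1, Ifitm10, St6gal1, Ctnnal1, Ackr3 and Kcnj8. Dnase1l3, a secreted DNase that digests DNA in blood, had 8.82 CPM in KOS_1 against 2131 CPM in the control sinusoid, a log2 ratio of -7.91 (-8.18 to -7.66). Il13ra2, a decoy receptor for interleukin 13, had 0 UMIs in KOS_1 and 245 in the control sinusoid, at least 76.0-fold lower against a floor of 3 UMIs over KOS_1. The difference in Dnase1l3 was as large as that in Maf. Cyp26b1, which degrades retinoic acid, had 3.70 CPM in KOS_1 and 215 CPM in the control sinusoid. Tpbgl, a leucine-rich repeat protein, had 5.90 CPM in KOS_1 and 316 CPM in the control sinusoid. Ackr3, a receptor that scavenges the chemokine CXCL12, had 1.42 CPM in KOS_1 and 49.8 CPM in the control sinusoid, a log2 ratio of -5.09 (-5.85 to -4.49). Of these, the FGF receptor partner Flrt1, the interferon-induced transmembrane family member Ifitm10, the sialyltransferase St6gal1, the catenin relative Ctnnal1 and the potassium channel subunit Kcnj8, had 5 to 20 UMIs in KOS_1 and 232 to 1148 in the control sinusoid.

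**Figure D3:**
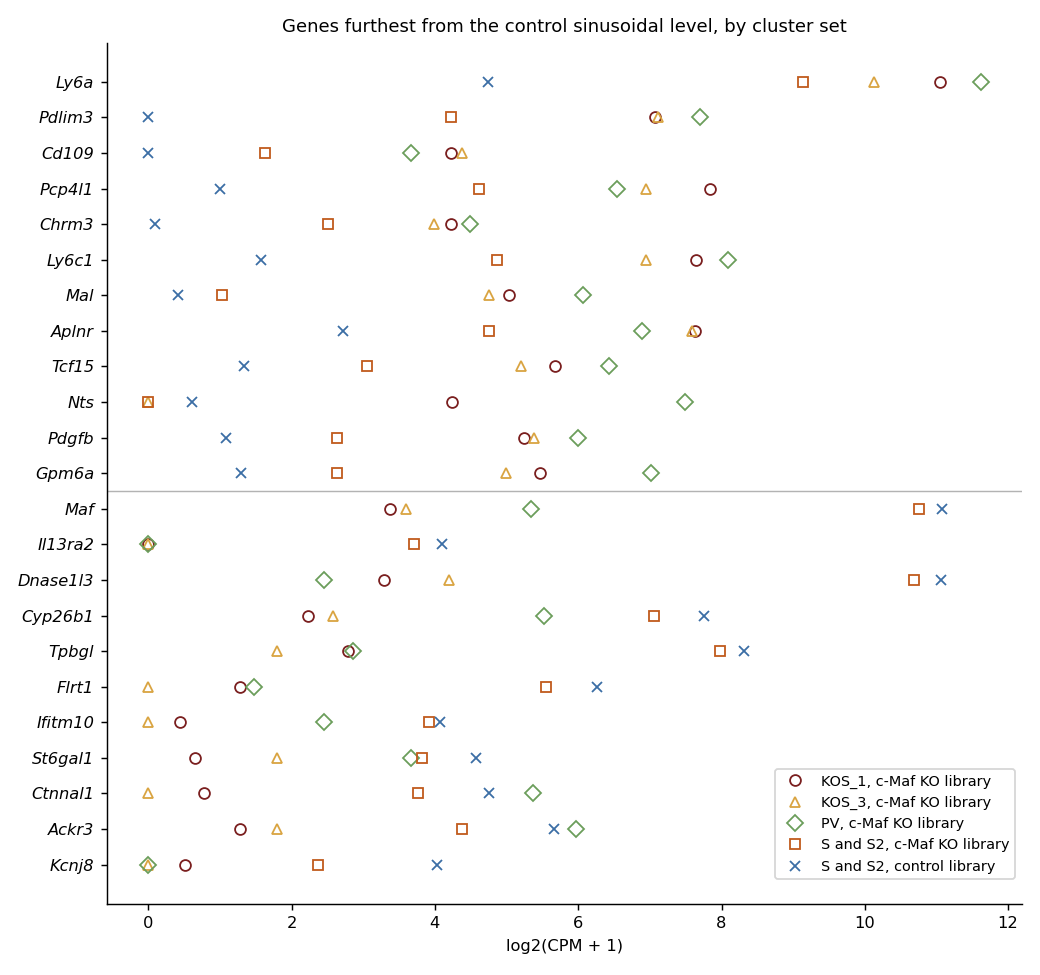
The 12 genes furthest above the control sinusoid in KOS_1 and those named among the 12 furthest below it, as log2(CPM + 1) in 5 sets of cells, with sums over cells and no replicates. KOS_1 and KOS_3 of the c-Maf KO library lie close together for most genes, S and S2 of the c-Maf KO library lie between KOS_1 and the control for the raised genes except Nts (0 UMIs), and Maf and Dnase1l3 are near the control level in S and S2 of the c-Maf KO library.

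Promoters of these genes were searched for 2 short motifs because Maf proteins bind DNA: TGCTGAC, 1 arm of the palindromic Maf recognition element, and TGACTCA, the AP-1 core that lies at the centre of that element and shares the letters TGAC with the arm. Of 28 genes looked up (Maf, the markers and the genes above), 19 had entries among RefSeq promoters of GRCm38.p6, in windows of 250 bases before to 50 bases after the start, and both strands were read. The arm lay in 3 of the 19 genes (Pcdh17, Pcp4l1 and Ackr3), against 5.28% of 27025 genes in the table, and the AP-1 core in 3 (Nts, Il13ra2 and Ifitm10), against 5.95%. Among the genes furthest from control, the arm lay in 1 of 7 raised and 1 of 8 lowered genes with an entry, and the AP-1 core in 1 and 2. A match of letters is not evidence of binding. Ackr3 and Il13ra2, lowered genes with 1 match each before the start, are shown with 250 bases as examples of the 2 motifs, and the 2 raised genes with matches just after the start are shown by the site alone. All are read 5′ to 3′ on the strand of the gene, with the motif or its reverse complement in capitals.
Ackr3, chr1:90203730-90203979, plus strand: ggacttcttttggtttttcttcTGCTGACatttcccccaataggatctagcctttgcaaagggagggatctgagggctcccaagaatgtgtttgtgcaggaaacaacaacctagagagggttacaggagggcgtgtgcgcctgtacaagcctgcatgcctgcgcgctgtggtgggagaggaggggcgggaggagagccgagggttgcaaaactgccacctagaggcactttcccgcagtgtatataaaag
Il13ra2, chrX:147429193-147429442, minus strand: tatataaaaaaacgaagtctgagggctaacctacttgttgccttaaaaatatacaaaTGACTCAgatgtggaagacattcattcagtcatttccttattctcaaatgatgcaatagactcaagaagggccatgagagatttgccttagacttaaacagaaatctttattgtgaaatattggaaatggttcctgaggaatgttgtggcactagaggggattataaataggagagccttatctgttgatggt
Pcdh17, chr14:84443563-84443578, plus strand: aGTCAGCAagagacgc
Pcp4l1, chr1:171196220-171196242, minus strand: cccggagcTGCTGACaggaccag

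Gene lists of sinusoidal identity stood low in KOS_1, while general endothelial genes differed less. Over all tested genes 14.3% were called higher and 17.3% lower, the background for the list counts against the control sinusoid here and below. Of 25 tested genes of sinusoidal identity, 0 were called higher and 19 lower than in the control sinusoid, with a median log2 ratio of -1.72. The waste-clearing receptor Stab2 had 183 CPM in KOS_1 and 1688 CPM in the control sinusoid, a log2 ratio of -3.21 (-3.27 to -3.15). The lectin Clec4g had 603 CPM in KOS_1 and 2666 CPM in the control sinusoid, a log2 ratio of -2.15 (-2.18 to -2.11). Fcgr2b, the receptor that takes up immune complexes, had 276 CPM in KOS_1 and 1564 CPM in the control sinusoid, a log2 ratio of -2.50 (-2.55 to -2.45). The reduction was partial, and these genes were still detected in KOS_1. Lyve1, a hyaluronan receptor, had a log2 ratio of -1.51, and F8, which encodes coagulation factor VIII, one of -1.47. Of the members called in neither direction, Oit3 had 897 CPM in KOS_1 and 929 CPM in the control sinusoid, and Gata4, a transcription factor needed for sinusoidal fate, had 143 and 178 CPM in the same order. Among 12 general endothelial genes, 0 were called higher and 3 lower (Tek, Eng and Ptprb), with a median of -0.34 and a sum of 7426 CPM in KOS_1 and 10693 CPM in the control sinusoid. Cdh5, the adhesion protein VE-cadherin, had 641 CPM in KOS_1 and 778 CPM in the control sinusoid, a log2 ratio of -0.28. General endothelial genes were thus somewhat lower in sum, and fewer of them were called than of the sinusoidal genes.

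Uptake and degradation genes were lower together. Of 15 tested scavenger and endocytic receptors, 1 was called higher and 11 lower, with a median of -1.87. Of the 11, Stab1, Stab2, Mrc1, Fcgr2b, Clec4g and Lyve1 are also on the sinusoidal list, so the lists are not separate results. Mrc1, the mannose receptor, had 342 CPM in KOS_1 and 1602 CPM in the control sinusoid, a log2 ratio of -2.23. Of 19 lysosomal genes, 0 were called higher and 13 lower, with a median of -0.82, and Ctsl and Tfec of these are on the sinusoidal list too. The lysosomal protease gene Ctsl had 370 CPM in KOS_1 and 2386 CPM in the control sinusoid, and the protease gene Ctsb had 360 and 1473 CPM in the same order. Of 9 genes of retinoid metabolism, 0 were called higher and 7 lower, with a median of -2.48. Besides Cyp26b1, the retinoic acid receptor gene Rarb was lower at 5.62 CPM in KOS_1 and 83.4 CPM in the control sinusoid, a log2 ratio of -3.88 (-4.24 to -3.56). Lrat, a stellate cell enzyme, is also on that list.

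Genes of both zones were tested, and the pericentral list stood lower. Of 17 pericentral endothelial genes, 2 were called higher and 13 lower, with a median of -2.47. Wnt2, a ligand that sinusoids send to hepatocytes, had 22.5 CPM in KOS_1 and 385 CPM in the control sinusoid, a log2 ratio of -4.10 (-4.27 to -3.93). Rspo3, which strengthens Wnt signals and marks the central vein, had 6.47 CPM in KOS_1 and 66.8 CPM in the control sinusoid, a log2 ratio of -3.36 (-3.69 to -3.06). The receptor gene Kit had 27.0 CPM in KOS_1 and 173 CPM in the control sinusoid. The pericentral members called higher were Pcolce and the cell cycle gene Ccnd1, with log2 ratios of 0.96 and 1.09. Of 17 periportal endothelial genes, 1 was called higher and 6 lower, with a median of -0.24. Adgrg6, an adhesion receptor, was the member called higher, with 20.9 CPM in KOS_1 and 1.79 CPM in the control sinusoid. The lists were not tested against each other.

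Genes of continuous capillaries and caveolae were more often called higher than lower. Of 22 tested continuous capillary genes, 12 were called higher and 4 lower, with a median of 0.72. Cd34, a sialomucin of capillary endothelium, had 361 CPM in KOS_1 and 20.8 CPM in the control sinusoid, a log2 ratio of 4.12 (3.96 to 4.29). Ly6a, Ly6c1, Aplnr, Tcf15 and Tm4sf1, described above, are members of that list. The summed level of the list was 9955 CPM in KOS_1 and 10429 CPM in the control sinusoid, so its sum and its median differ in sign. Abundant members that were lower weigh on the sum. Gpihbp1, which carries lipoprotein lipase across capillaries, had 1517 CPM in KOS_1 and 2364 CPM in the control sinusoid, a log2 ratio of -0.64. The water channel Aqp1 had 1016 CPM in KOS_1 and 2537 CPM in the control sinusoid, a log2 ratio of -1.32. Of 8 tested genes of caveolae and fenestral diaphragms, 5 were called higher and 1 lower, with a median of 0.56. Cav1, the structural protein of caveolae, had 79.9 CPM in KOS_1 and 22.5 CPM in the control sinusoid, a log2 ratio of 1.83 (1.65 to 2.01). Cavin3 had 25.8 CPM in KOS_1 and 1.12 CPM in the control sinusoid, a log2 ratio of 4.48 (3.82 to 5.32). Plvap, the diaphragm protein, had a log2 ratio of 0.74, and Cav2 was lower at -0.68. Of 19 junction genes 4 were called higher and 5 lower, beside 14.3% and 17.3% of all genes. Ocln, which encodes the tight junction protein occludin, had 152 UMIs in KOS_1 and 2 in the control sinusoid, a log2 ratio of 6.03 (4.47 to 9.41), whereas the tight junction gene Cldn5 had 379 CPM in KOS_1 and 806 CPM in the control sinusoid. Of 28 genes of matrix and basement membrane, 6 were called higher and 7 lower, with a median of -0.02 that turns to 0.08 under median-of-ratios scaling. Fbn1, the microfibril protein fibrillin, had 87.2 CPM in KOS_1 and 6.22 CPM in the control sinusoid, a log2 ratio of 3.80 (3.51 to 4.13).

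Imprinted and fetal growth genes gave no common direction. Of 12 tested, 4 were called higher and 4 lower, with a median of -0.22. Mest dominated their sum, which was 1634 CPM in KOS_1 and 635 CPM in the control sinusoid. Peg10, also expressed from the paternal copy, had 92.3 CPM in KOS_1 and 27.6 CPM in the control sinusoid, a log2 ratio of 1.74 (1.58 to 1.91). Hmga2, a chromatin protein of growing tissue, had 78.2 CPM in KOS_1 and 24.9 CPM in the control sinusoid, a log2 ratio of 1.65 (1.48 to 1.82). The maternally expressed H19 was lower with 47 UMIs in KOS_1 and 165 in the control sinusoid, and the growth inhibitor Cdkn1c had 35.1 CPM in KOS_1 and 83.4 CPM in the control sinusoid. The Mest increase was therefore not shared by every imprinted gene measured. Of 15 protocadherins and tetraspans, 5 were called higher and 2 lower, with a median of 0.30. Pcdh1 had a log2 ratio of 2.31 and Pcdh12 one of -0.90, and Tspan7, abundant in control sinusoids, had 125 CPM in KOS_1 and 1042 CPM in the control sinusoid. The Ly6 list had 4 of 6 members called higher and 1 lower, and Ly6e had 540 CPM in KOS_1 and 145 CPM in the control sinusoid.

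Proliferation genes were higher in KOS_1, although far below their level in another endothelial cluster of the library, C-EC. Of 26 tested S phase genes, 24 were called higher and 0 lower, with a median of 2.17. The replicative helicase gene Mcm5 had 63.2 CPM in KOS_1 and 10.6 CPM in the control sinusoid, a log2 ratio of 2.57 (2.33 to 2.83). Rrm2, a subunit of ribonucleotide reductase, had 14.9 CPM in KOS_1 and 1.92 CPM in the control sinusoid, a log2 ratio of 2.94 (2.40 to 3.57). Of 26 tested genes of G2 and M phase, 26 were called higher, with a median of 1.61. Top2a, the topoisomerase of dividing cells, had 36.3 CPM in KOS_1 and 6.15 CPM in the control sinusoid, while C-EC cells of the c-Maf KO library had 824 CPM. The Top2a level of KOS_1 was thus low beside that of C-EC. The authors' phase call was S for 308 KOS_1 cells (22.7%), G1 for 1047 and G2 or M for 1. The S call was given to 0.822% of control S2 cells and 7.42% of control S cells. These calls read the same kind of genes, and no cycling is read from them alone. In cells with the G1 call only, the median over S phase genes was 0.66 and that over G2 and M phase genes 0.996. Of 18 ribosome biogenesis genes, 15 were called higher and 0 lower, with a median of 0.97. Npm1, a nucleolar chaperone, had 766 CPM in KOS_1 and 347 CPM in the control sinusoid, and Myc, which drives these genes, had 52.6 and 10.9 CPM in the same order, a log2 ratio of 2.27 (2.03 to 2.53). Of 17 G1 cyclins and inhibitors, 7 were called higher and 6 lower.

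**Figure D4:**
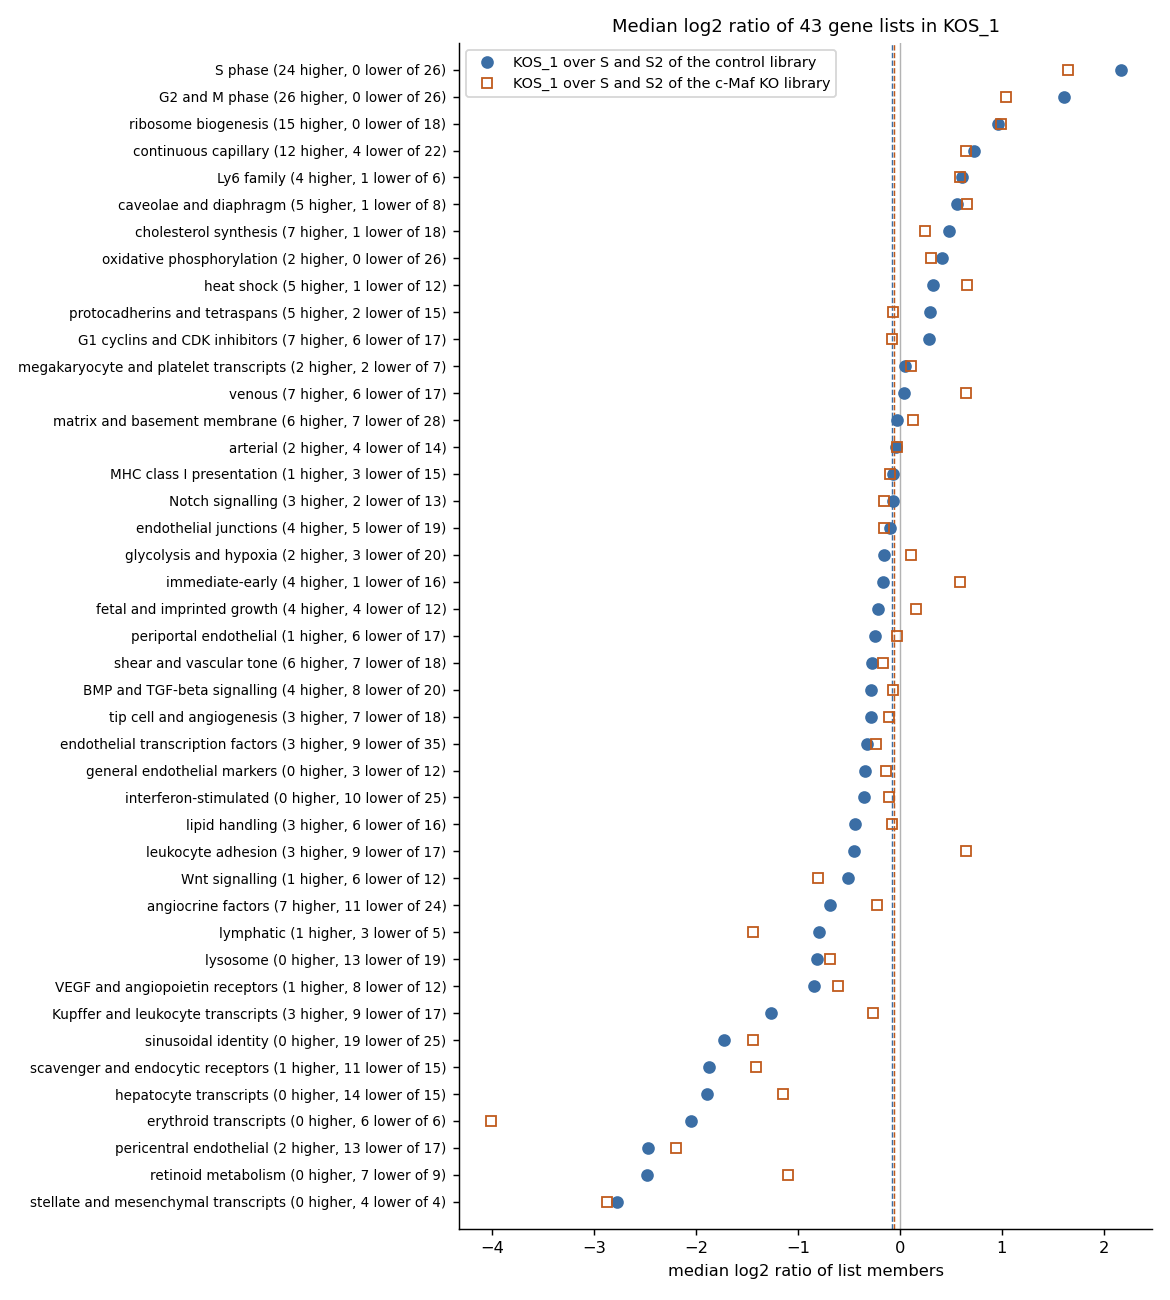
Median log2 ratio of the members of 43 gene lists in KOS_1 over S and S2 of the control library (filled circles) and over S and S2 of the c-Maf KO library (open squares), with the counts called higher and lower against the control library beside each name and dashed lines at the medians of all genes (-0.08 and -0.06). S phase stands highest at 2.17 against control, and the stellate, retinoid and pericentral lists stand lowest there, whereas against S and S2 of the c-Maf KO library the erythroid list stands lowest at -4.01; both contrasts share the KOS_1 cells.

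Ligands, receptors and transcription factors were called in both directions, against 14.3% of all genes higher and 17.3% lower. Among receptors and ligands of the VEGF and angiopoietin pathways 1 of 12 was called higher and 8 lower, with a median of -0.85. Flt4, the receptor VEGFR3, had 198 CPM in KOS_1 and 869 CPM in the control sinusoid, a log2 ratio of -2.14 (-2.20 to -2.08). Kdr, the receptor VEGFR2, was called in neither direction, with 1540 CPM in KOS_1 and 2220 CPM in the control sinusoid. The ligand Vegfc was the member called higher, with 24.0 CPM in KOS_1 and 4.90 CPM in the control sinusoid. Of 24 angiocrine factors, which endothelium sends to its neighbours, 7 were called higher and 11 lower, with a median of -0.69. Hgf, a growth factor for hepatocytes, had 46.0 CPM in KOS_1 and 129 CPM in the control sinusoid, a log2 ratio of -1.49, and Bmp2, a ligand that sets hepcidin in hepatocytes, had 437 and 734 CPM in the same order, a log2 ratio of -0.75. Its relative Bmp6 was higher, with 28.7 CPM in KOS_1 and 13.6 CPM in the control sinusoid, a log2 ratio of 1.08 (0.84 to 1.33). Of 35 endothelial transcription factors 3 were called higher and 9 lower, with a median of -0.32. Calls of both directions together lay near the 31.6% of all genes, with more lower than higher, and Maf itself is among the 9. Of the Maf relatives on that list, Mafg had 38.1 CPM in KOS_1 and 141 CPM in the control sinusoid, a log2 ratio of -1.89. Maff had a log2 ratio of 0.86 (0.34 to 1.40) on 83 UMIs in KOS_1 and 49 in the control sinusoid, and -1.08 in cells thinned to equal depth.

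Stress and inflammatory genes were mixed, beside 14.3% of all genes called higher and 17.3% lower than in the control sinusoid. Of 25 interferon-stimulated genes, 0 were called higher and 10 lower, with a median of -0.35. Immediate-early genes had 4 called higher and 1 lower of 16, with a median of -0.16 against the control sinusoid and 0.59 against S and S2 of the c-Maf KO library. The first of these medians ran between -0.56 and 1.09 over the alternatives and changed sign in 4, so it has no stable direction. Of 12 heat shock genes 5 were called higher and 1 lower, and Hspb1, a small heat shock protein, had 124 CPM in KOS_1 and 4.96 CPM in the control sinusoid, a log2 ratio of 4.63. Vcam1, an adhesion molecule for leukocytes, had 66.4 CPM in KOS_1 and 26.4 CPM in the control sinusoid, while the selectin Selp had 9.67 and 34.5 CPM in the same order. Leukocyte adhesion genes as a list had 3 called higher and 9 lower of 17 against the control sinusoid, with a median of -0.45. Against S and S2 of the c-Maf KO library 8 of 15 were called higher and 4 lower, with a median of 0.65. Over all genes 10.4% were called higher and 13.1% lower in that contrast. The direction of this list thus depends on the reference cells.

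Transcripts of hepatocytes, stellate cells, erythroid cells and leukocytes were scarcer in sum in KOS_1 than in the control sinusoid. With megakaryocyte and platelet genes included, and Vwf, Clec1b, Lrat and Reln left out, they made up 0.0492% of UMIs in KOS_1. The share was 0.117% in the control sinusoid and 0.124% in S and S2 of the c-Maf KO library. Of 15 tested hepatocyte genes 14 were called lower, and the 20 listed genes summed to 82.1 CPM in KOS_1 and 248 CPM in the control sinusoid. Stellate genes summed to 4.91 CPM in KOS_1 and 33.2 CPM in the control sinusoid, and Pdgfrb, which marks stellate cells, was at 0 in KOS_1. Erythroid genes summed to 103 CPM in KOS_1, 608 CPM in S and S2 of the c-Maf KO library and 298 CPM in the control sinusoid, with Alas2, Slc4a1 and Car1 at 0 in KOS_1. Kupffer and leukocyte genes summed to 228 CPM in KOS_1 and 509 CPM in the control sinusoid, and megakaryocyte and platelet genes to 245 and 502 CPM in the same order. Most of that last difference was Clec1b, which sinusoidal endothelium also expresses and which had 119 CPM in KOS_1 and 393 CPM in the control sinusoid, and the list's median was 0.05. The 3 leukocyte genes called higher (Cd79a, Cd79b and Ms4a1) mark B cells and had ratios below 0 once the 5% of cells richest in other types' transcripts were left out. That filter counts the 3 genes themselves, so it cannot show where their UMIs came from. The part of other types' transcripts in the results was not tested. Lrat and Rbp4 of the retinoid list, with 6 and 16 UMIs in KOS_1, are made by stellate cells and hepatocytes.

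Within the c-Maf KO library, KOS_1 was set against the 336 cells named S and S2, which kept Maf. Of 10502 genes tested, 1088 were called higher in KOS_1 (10.4%) and 1373 lower (13.1%), and under median-of-ratios scaling 1468 higher and 972 lower. This contrast shares the KOS_1 cells with the one against the control sinusoid, so its values are given beside those and are no independent support. Dnase1l3 had 8.82 CPM in KOS_1 and 1645 CPM in S and S2 of the c-Maf KO library, a log2 ratio of -7.54 (-7.81 to -7.28). Stab2 had 183 CPM in KOS_1 and 1094 CPM in S and S2, a log2 ratio of -2.58, and Wnt2 had 22.5 and 298 CPM in the same order, a log2 ratio of -3.73. Lower sinusoidal genes were thus seen inside 1 library. Ly6a had 2113 CPM in KOS_1 and 561 CPM in S and S2 of the c-Maf KO library, a log2 ratio of 1.91, against 25.7 CPM in the control sinusoid. Cd34 had 361 CPM in KOS_1 and 135 CPM in S and S2 of the c-Maf KO library, and Pdlim3 had 133 and 17.8 CPM in the same order. Mest had 1234 CPM in KOS_1 and 540 CPM in S and S2 of the c-Maf KO library. For each of these raised genes the summed level of the cells with Maf lay between KOS_1 and the control sinusoid. Single cells varied, and Ly6a had a median of 0 CPM and a 90th percentile of 1528 CPM in S of that library. In its S2 cells these were 136 and 1216 CPM. The genes furthest apart also included Hspb1, with a log2 ratio of 3.68 (3.06 to 4.48), the S phase gene Dtl at 3.10, Adgrg6 at 3.16 and the amino acid transporter Slc43a1 at 3.15. Nts had 252 UMIs in KOS_1 and 0 in S and S2, at least 11.4-fold higher against a floor of 3 UMIs. On the low side stood Tcn2, a vitamin B12 carrier, at -4.73 (-4.96 to -4.51), Olfm1 at -3.81 and Rarb at -3.79. Sinusoidal identity genes had 0 called higher and 18 lower of 25, with a median of -1.44, and S phase genes 22 higher and 0 lower of 26, with a median of 1.65.

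The cells of S and S2 in the c-Maf KO library that could be assigned came from the female mouse, as far as sex-linked transcripts tell. Cells with an Xist UMI and none of 4 Y-linked genes are called female-type, and the reverse male-type. Of the 223 S cells of that library, 85 held neither kind of UMI and 2 held both. Of the 113 S2 cells 2 held neither. Of 1692 female-type cells in endothelial clusters of that library, 920 lay in KOS_1 (54.4%, 52.0 to 56.8%) and 247 in S and S2 (14.6%). Of 328 male-type cells, 208 lay in KOS_1 (63.4%, 57.9 to 68.6%) and 0 in S and S2, which allows a share of up to 0.915% by a floor of 3 counts and 1.12% by the exact interval. The contrast with S and S2 of the same library was therefore repeated in female-type cells alone, with 993 genes called higher (9.86%) and 1319 lower (13.1%) of 10071. There Ly6a had 2306 CPM in KOS_1 and 568 CPM in S and S2, a log2 ratio of 2.02 (1.93 to 2.11), and Stab2 had 184 and 1145 CPM in the same order, a log2 ratio of -2.64. Cavin2 had 769 CPM in KOS_1 and 783 CPM in S and S2.

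The altered levels against the control sinusoid appeared in cells of both sexes. The types describe the mice in a pool and do not stand for replicates, and male-type KOS_1 cells held 2161911 UMIs against 10264772 in female-type KOS_1 cells. Female-type and male-type cells numbered 920 and 208 in KOS_1, but 688 and 827 in the control sinusoid. Ratios over all cells thus mix the types in unlike proportions. Ly6a had a log2 ratio of 6.33 (6.11 to 6.56) for female-type and 5.75 for male-type. Stab2 had a log2 ratio of -3.29 in both types. Maf had one of -7.67 for female-type and -9.12 for male-type. Other markers differed in size between the types. Mest had 1140 CPM in female-type KOS_1 cells against 328 CPM in female-type control cells, a log2 ratio of 1.80, and 1576 CPM in male-type KOS_1 cells against 174 CPM in male-type control cells, a log2 ratio of 3.18. Tm4sf1 had a log2 ratio of 1.51 (1.42 to 1.60) for female-type and 0.41 (0.30 to 0.53) for male-type, and Cavin2 one of 0.56 and -0.02 in the same order. Pcp4l1 had 269 CPM in female-type and 81.9 CPM in male-type KOS_1 cells, and Nts had 6.33 and 46.3 CPM in the same order. Whether the sexes or the individual mice differ cannot be told apart.

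**Figure D5:**
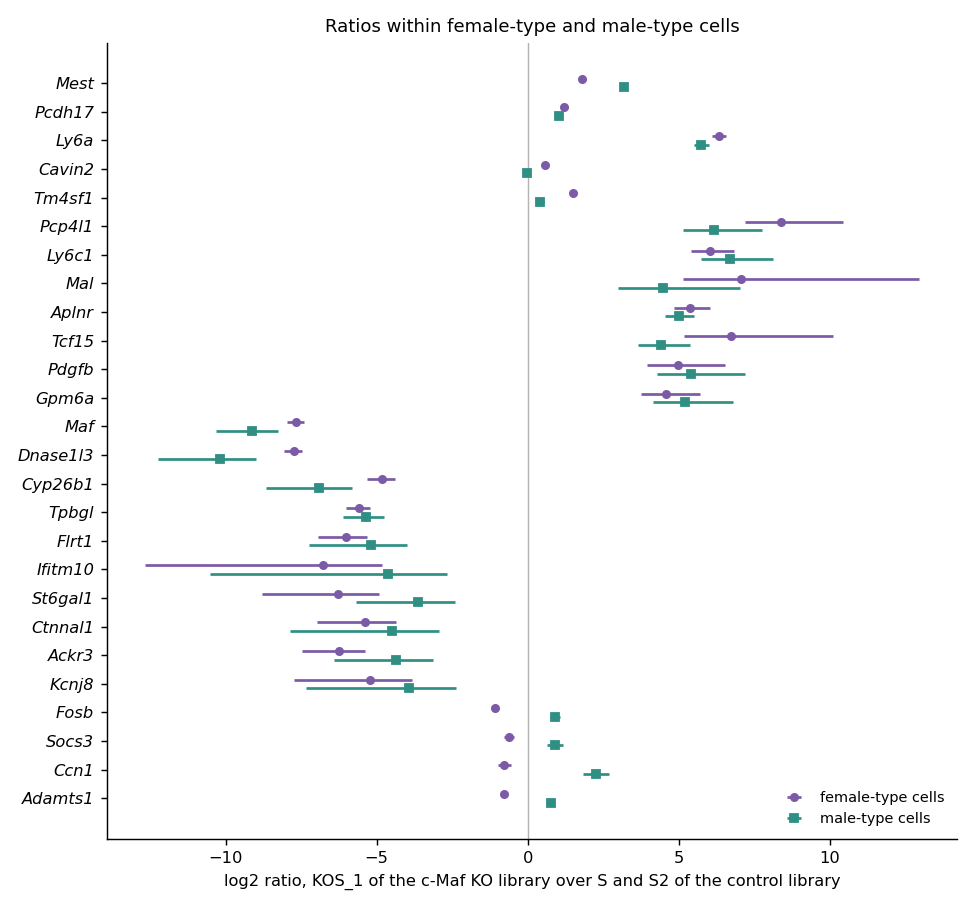
Log2 ratios of KOS_1 of the c-Maf KO library over S and S2 of the control library within female-type and male-type cells, for 26 genes, with exact 95% intervals that cover counting error only. Raised and lowered genes without a UMI in any of the compared sets, such as Pdlim3 and Il13ra2, are left out. The markers, raised and lowered genes shown lie on the same side in both types except Cavin2 (0.56 and -0.02). Fosb, Socs3, Ccn1 and Adamts1, added because their directions differ, lie on opposite sides.

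Among the other clusters of the c-Maf KO library, KOS_3 had the highest Spearman correlation with KOS_1, 0.962 over 14115 genes. KOS_2 had 0.960, C-EC 0.959, S 0.956 and PV 0.932, and control S2 had 0.950. The share of genes called in either direction gave another order, with 16.9% against C-EC, 19.4% against PV, 23.4% against KOS_2 and 23.8% against KOS_3. Genes are not independent replicates, and the clusters differ in depth: KOS_3 cells had a median of 3178.5 UMIs and KOS_2 cells 1644.5. Against KOS_3, 1082 of 10387 genes were called higher in KOS_1 (10.4%) and 1393 lower (13.4%), and under median-of-ratios scaling 694 higher and 1919 lower. Sinusoidal identity genes differed little, with 0 called higher and 4 lower of 25 and a median of -0.14. More members were called among immediate-early genes, with 14 of 16 called higher in KOS_1 and a median of 1.26, and genes of oxidative phosphorylation, with 17 of 26 called higher and a median of 0.67. Fosb, an immediate-early transcription factor gene, had 195 CPM in KOS_1 and 33.4 CPM in KOS_3, a log2 ratio of 2.52. Lars2, a mitochondrial leucyl-tRNA synthetase gene, had 174 CPM in KOS_1 and 691 CPM in KOS_3. KOS_3 cells also had a median of 13.9% mitochondrial UMIs, against 6.13% in KOS_1, and the part of that in the difference was not tested.

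Against KOS_2, whose cells were the shallowest of these clusters, 2246 of 10419 genes were called higher in KOS_1 (21.6%) and 194 lower (1.86%), with a median over all genes of 0.30. Immediate-early genes again stood higher, with 14 of 16 called. Platelet genes were called lower in 7 of 8 cases, and leukocyte genes in 9 of 12. Against C-EC, 828 of 10673 genes were called higher in KOS_1 (7.76%) and 978 lower (9.16%). Proliferation genes stood lower, with 29 of 29 genes of G2 and M phase and 24 of 27 of S phase called lower in KOS_1. Hmmr, a spindle protein, had 0.925 CPM in KOS_1 and 152 CPM in C-EC. Of 25 sinusoidal identity genes 3 were called higher and 2 lower in KOS_1, with a median of 0.22, and of 20 continuous capillary genes 0 were called in either direction. Ccnd2, a G1 cyclin, was higher in KOS_1 at 78.8 CPM against 21.1 CPM in C-EC, a log2 ratio of 1.89 (1.56 to 2.26).

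Against PV, 739 of 10512 genes were called higher in KOS_1 (7.03%) and 1305 lower (12.4%). KOS_1 kept more of the sinusoidal genes, with 13 called higher and 4 lower of 25 and a median of 0.85. Lyve1 had 375 CPM in KOS_1 and 66.2 CPM in PV, a log2 ratio of 2.49, and Oit3 had 897 and 183 CPM in the same order, a log2 ratio of 2.29. Arterial genes had 0 called higher and 14 lower of 18, with a median of -2.57, and genes of caveolae 0 called higher and 8 lower of 10, with a median of -1.68. Mgp, a matrix protein of artery walls, had 0.356 CPM in KOS_1 and 902 CPM in PV. Vwf, von Willebrand factor, had 51.6 CPM in KOS_1 and 1067 CPM in PV. Rspo3 had 6.47 CPM in KOS_1 and 498 CPM in PV, and Eln, which encodes elastin, had 9.32 and 631 CPM in the same order. Continuous capillary genes were also called lower in KOS_1 more often than higher against PV, 13 against 5 of 23, with a median of -0.81.

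Within KOS_1, Mest and Stab2 varied little with depth, and Ly6a was somewhat lower in the deeper cells. In the 678 cells below the median depth Mest had 1216 CPM and in the 678 above it 1243 CPM. Ly6a had 2321 CPM in the shallower and 2001 CPM in the deeper cells, and Stab2 184 and 182 CPM in the same order. By the authors' phase calls, Tm4sf1 had 433 CPM in S phase cells of KOS_1 and 647 CPM in G1 cells, Ly6a had 1821 and 2206 CPM in the same order, and Mest 1206 and 1243 CPM. Sinusoidal identity genes summed to 6756 CPM in S phase cells and 7886 CPM in G1 cells of KOS_1. The single control cell annotated as KOS_1 held 2812 UMIs, with 0 of Maf, Ly6a, Stab2 and Dnase1l3, 1 of Mest, 2 of Pcdh17 and 4 of Cavin2.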

How the data were processed

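Single-cell RNA was counted in 1 c-Maf KO and 1 control library. The deposited tables hold raw UMI counts per gene and barcode, and the authors' table gives each annotated cell its cluster name, phase call and percent of mitochondrial UMIs. The submitters' processing notes name Cell Ranger 4.0.0, FastQC 0.11.3, Seurat 3.2.3 and mm10, and no source used here states parameters of alignment, counting or clustering. The c-Maf KO library held 60281713 UMIs in 9058 barcodes and the control library 54143192 in 9038, of which 8166 and 7669 cells are annotated. The libraries shared 25 barcodes in all.

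Counts were summed over the cells of a cluster in each library. Ratio intervals are exact conditional binomial, levels exact Poisson and shares exact Clopper-Pearson, at 95%, and all cover counting error only. List medians use members with at least 20 UMIs over both sums, beside all genes with as many. For shares, UMIs were drawn at random down to 1128 per cell (percentile 10 of the depth of endothelial cells), and shallower cells were left out. Scrublet marks were an alternative only and doublets stayed in the sums. The ratio procedure was checked on simulated counts. Cells and gene lists were chosen with earlier results of these data known. Named genes are Maf, the markers, the 12 highest and 12 lowest called genes against the control sinusoid with at least 200 UMIs (8 each against S and S2 of the c-Maf KO library, 6 each against KOS_3, C-EC and PV, 4 each against KOS_2) and, of each list, at most 3 called members a direction. The highest and lowest exclude Xist, genes of the Y chromosome and of mitochondria, predicted genes, genes for immunoglobulins, hemoglobins or ribosomal proteins, and genes of other cell types. Cdh5, Kdr, Clec4g, Fcgr2b, Mrc1, Oit3, Gata4, Bmp2, F8, Kit, Selp, Cd34, Plvap, Cldn5, Mcm5, Rrm2, Hgf, Rbp4 and Npm1, the leading genes over the rest of the endothelium and the genes at 0 were chosen after their values were seen. Of 859 listed symbols, 5 had no match in the tables. Positions come from the GENCODE annotation of GRCm38 and promoters from RefSeq. Python 3.11.15, numpy 2.4.6, scipy 1.17.1, pandas 2.3.3, scanpy 1.11.5 and matplotlib 3.10.9 were used. A few genes that the rule names are not reported here. The 14 alternatives are given at the end.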

Additional observations from a re-analysis of the deposited data

Results flagged for a closer look

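The ratios of 4 genes pointed in opposite directions in the pooled mice, as KOS_1 over the control sinusoid. The differences between female-type and male-type cells were not tested, since each library holds 1 mouse of each sex. Fosb, an immediate-early transcription factor, had 193 CPM in female-type KOS_1 cells against 412 CPM in female-type control cells, with a log2 ratio of -1.10. Fosb had 244 CPM in male-type KOS_1 cells and 131 CPM in male-type control cells, with a log2 ratio of 0.89. Socs3, a feedback inhibitor of cytokine signalling, had log2 ratios of -0.63 for female-type and 0.91 for male-type. Ccn1, a matricellular protein, had log2 ratios of -0.77 for female-type and 2.26 for male-type, with 60.6 CPM in male-type KOS_1 cells and 12.6 CPM in male-type control cells. Adamts1, a matrix protease, had log2 ratios of -0.77 for female-type and 0.76 for male-type.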

How the results depend on the processing

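No paired analysis was possible because each group is 1 library. Under the alternatives, 103 summary values held and 45 moved (counts by over 1.5 times), and the cause was not tested. Of the gene ratios 3082 held, 835 moved and 22 that had been called turned sign. Among those that held or moved, 50 that had not been called also crossed 0, Cavin2 (to -0.02 in male-type cells) among them, and are not listed. Median-of-ratios scaling gave 694 genes higher against KOS_3. The mean of per-cell CPM gave 1708 higher against S and S2 of the c-Maf KO library, 1989 higher and 2458 lower against KOS_3, 4261 and 414 against KOS_2, 1666 higher against C-EC and 1317 higher against PV. Calls with that mean took the fold and the UMI minimum only, without an interval, so its counts follow a looser rule. Thinned cells gave 849 higher and 1298 lower against the control sinusoid with a Maf ratio of -8.23, 402 and 601 against S and S2, 652 lower against KOS_3, 1263 and 72 against KOS_2, 491 and 427 against C-EC, and 292 and 426 against PV. Thinned cells and smaller sets hold fewer UMIs, so fewer genes can reach the minimum of 50. The counts of calls under the alternatives are given here without shares of the genes tested. Without a UMI minimum 525 were lower against KOS_2 and 2196 lower against PV. A minimum of 200 UMIs gave 1044 higher against the control sinusoid, 93 lower against KOS_2, 538 higher and 648 lower against C-EC and 822 lower against PV. A fold of 2 gave 896 higher and 874 lower against the control sinusoid, 603 and 561 against S and S2, 353 and 467 against KOS_3, 886 and 120 against KOS_2, 233 and 565 against C-EC, and 401 and 680 against PV. The stricter cell filter gave 812 higher, female-type cells 599 higher and leaving out the cells richest in other types' transcripts 124 lower against KOS_2. Maf was at -9.12 in male-type cells and at -7.40 against control S alone, where 1059 genes were lower.

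Called ratios against the control sinusoid that turned were Nrgn at -0.12 with per-cell means, -0.10 in thinned cells and -0.48 against control S alone; Marveld2 at -0.74, Cdkn2b at 0.10, Angptl4 at 0.84 and Maff at -1.08 in thinned cells; Ms4a1 at -0.83 without doublets; Sele at -0.27 and Hbb-bs at 0.0887 in female-type cells; and Esm1 at -0.0850 in male-type cells. Without the cells richest in other types' transcripts, Ms4a1 was at -1.07, Cd79a at -0.40 and Cd79b at -0.46. Against control S alone Cxcl10 was at 0.21, Firre at 0.0610, Pcdhga12 at 0.0813, Klf6 at 0.20, Hspa1b at 1.21 and Sc5d at 0.13. Against PV, Maf turned to 1.06 in thinned cells and 0.10 without the cells richest in other types' transcripts. The stricter filter against KOS_3, the G1 cells against C-EC and male-type cells against clusters of the c-Maf KO library were not run, because a set fell under 50 cells. Genes with few UMIs cannot be resolved at this depth.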
